A study of Mus musculus with 9 samples.

Results

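The genes described here are 8 mouse genes whose proteins write, copy or remove DNA methylation, *Dnmt3a*, *Dnmt3b*, *Dnmt3l*, *Tet1*, *Tet2*, *Uhrf1*, *Hells* and *Tdg*. They were chosen by name and make up 8 of the 14281 protein-coding genes in the part of the genome where all genotypes have values. Whole genome bisulfite sequencing (WGBS) measured CpG methylation in J1 embryonic stem cells (ESCs, strain 129S4/SvJae, grown on gelatin in serum with LIF) that were wild type (WT), Dnmt3a-/- (*Dnmt3a* KO) or Dnmt3b-/- (*Dnmt3b* KO). For each genotype the reads of 3 libraries, 9 in all, are merged in 1 table, so that every value below is 1 pooled value per genotype, with no replicate error and no test across replicates. How many clones stand behind each line is not given in the sources used here, both comparisons with WT share the same WT table, and no expression was measured in these tables, so that markers of ESCs could not be checked. Where 3 values follow each other they are those of WT, then *Dnmt3a* KO, then *Dnmt3b* KO, and the knockouts are also called cells without DNMT3A or without DNMT3B. Within the genes and their 5 kb flanks, 6302 of the 6337 CpGs of the mm9 reference are listed, and 5931 were used, each covered by at least 3 reads in all genotypes. Their mean depth was 19.5 to 26.7 reads per CpG in WT, 17.6 to 22.6 without DNMT3A and 17.1 to 24.4 without DNMT3B, depending on the gene.

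DNMT3A and DNMT3B place new methyl groups on CpGs, and DNMT3L, which has no catalytic activity, binds and stimulates them. UHRF1 recognises hemimethylated CpGs after replication and brings the maintenance enzyme DNMT1 to them, and HELLS (LSH) is a chromatin remodeller needed for normal methylation. TET1 and TET2 oxidise 5-methylcytosine, and TDG cuts out the oxidised bases, so that the 8 genes cover both the gain and the loss of the mark. Bisulfite reads do not separate 5-methylcytosine from 5-hydroxymethylcytosine, the first product of TET enzymes, so that a methylation level here is the sum of both.

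The start regions below are printed because they carry the contrasts between the genes. They are reference sequence of mm9 from 250 bases before to 50 bases after a transcript start, 5' to 3' on the strand of the gene, and the CpGs used are in capitals.
Tet1-001 (start of the longest *Tet1* transcript, chr10:62361817-62362116, minus strand): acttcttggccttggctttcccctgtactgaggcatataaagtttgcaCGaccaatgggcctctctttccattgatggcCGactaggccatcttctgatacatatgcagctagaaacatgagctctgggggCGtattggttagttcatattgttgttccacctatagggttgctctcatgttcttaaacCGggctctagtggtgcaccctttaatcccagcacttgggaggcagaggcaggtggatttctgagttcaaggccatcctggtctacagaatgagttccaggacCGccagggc
Tet1 RefSeq start (11.8 kb further into *Tet1*, chr10:62350023-62350322, minus strand): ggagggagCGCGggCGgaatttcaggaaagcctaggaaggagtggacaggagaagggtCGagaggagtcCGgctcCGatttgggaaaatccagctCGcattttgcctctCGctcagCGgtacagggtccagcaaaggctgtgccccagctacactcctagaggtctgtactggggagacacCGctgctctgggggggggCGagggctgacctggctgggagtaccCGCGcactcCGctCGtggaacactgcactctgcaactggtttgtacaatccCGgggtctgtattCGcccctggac
Tet1-201 (inside *Tet1*, chr10:62342713-62343012, minus strand): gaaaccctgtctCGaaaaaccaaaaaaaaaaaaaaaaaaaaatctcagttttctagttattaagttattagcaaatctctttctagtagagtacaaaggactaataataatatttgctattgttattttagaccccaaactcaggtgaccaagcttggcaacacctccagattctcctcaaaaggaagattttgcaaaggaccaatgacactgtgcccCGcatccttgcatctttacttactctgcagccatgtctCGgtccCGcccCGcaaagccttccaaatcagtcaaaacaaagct
Dnmt3l-001 (start of the longest *Dnmt3l* transcript, chr10:77504782-77505081, plus strand): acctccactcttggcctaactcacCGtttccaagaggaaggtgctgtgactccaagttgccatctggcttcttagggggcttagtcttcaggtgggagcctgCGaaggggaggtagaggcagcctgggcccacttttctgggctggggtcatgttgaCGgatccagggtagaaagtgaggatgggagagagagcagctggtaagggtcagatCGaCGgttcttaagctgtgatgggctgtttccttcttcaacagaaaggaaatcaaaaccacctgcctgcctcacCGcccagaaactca
Dnmt3l-003 (inside *Dnmt3l*, chr10:77512337-77512636, plus strand): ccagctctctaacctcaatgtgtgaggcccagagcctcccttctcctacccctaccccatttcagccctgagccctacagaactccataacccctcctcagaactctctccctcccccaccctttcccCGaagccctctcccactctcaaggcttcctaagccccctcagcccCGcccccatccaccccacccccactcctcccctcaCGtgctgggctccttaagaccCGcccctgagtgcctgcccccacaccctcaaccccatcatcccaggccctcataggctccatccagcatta
Hells-001 (start of *Hells*, chr19:39005155-39005454, plus strand): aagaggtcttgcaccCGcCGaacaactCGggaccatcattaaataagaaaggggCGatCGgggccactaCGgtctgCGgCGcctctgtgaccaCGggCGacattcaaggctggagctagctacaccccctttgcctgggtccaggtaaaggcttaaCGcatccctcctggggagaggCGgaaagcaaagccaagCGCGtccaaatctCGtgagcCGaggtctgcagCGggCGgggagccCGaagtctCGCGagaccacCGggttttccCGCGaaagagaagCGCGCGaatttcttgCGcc
The printed *Hells* window holds 28 CpGs, all of them in capitals, with a mean methylation of 0%, 0.446% and 0.935%. The 17 CpGs at the RefSeq start of *Tet1* had 0%, 0.856% and 0%. At Tet1-001 there are 5 CpGs, and at Dnmt3l-003 there are 4.

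The 5 CpGs printed at Tet1-001 show the contrast read by read. In WT, 24 of 30, 16 of 22, 31 of 31, 27 of 36 and 21 of 28 reads were methylated, in the order of the sequence. The same CpGs of *Dnmt3a* KO ESCs had 1 of 13, 1 of 15, 1 of 23, 0 of 23 and 0 of 36 methylated reads. The *Dnmt3b* KO values were 10 of 13, 12 of 13, 22 of 32, 14 of 18 and 26 of 31. All 5 CpGs were thus above 68% in WT and in *Dnmt3b* KO ESCs and below 8% in *Dnmt3a* KO ESCs. At the 4 CpGs of Dnmt3l-003, 24 of 43, 0 of 11, 5 of 17 and 5 of 21 reads were methylated in WT, 2 of 32, 0 of 8, 0 of 8 and 0 of 14 in *Dnmt3a* KO, and 2 of 32, 2 of 6, 0 of 18 and 1 of 20 in *Dnmt3b* KO ESCs. Here 3 of the 4 CpGs were lower in both knockouts than in WT, and the remaining CpG had 11 reads or fewer in each genotype. The windows were printed for their contrasts, and neighbouring CpGs of pooled reads are not replicates.

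The knockouts were first checked at their targets. In *Dnmt3a* KO ESCs, 12 CpGs of *Dnmt3a* between positions 3902401 and 3902801 of chromosome 12, in exons 18 and 19 of the 23 exons of Dnmt3a-001 and the intron between them, had 0 reads each, where WT had a mean of 31.4 reads and *Dnmt3b* KO ESCs 16.8. Likewise, 30 CpGs of *Dnmt3b* from exon 17 to exon 20 had 0 reads in the *Dnmt3b* KO, where WT had 31.5 reads and *Dnmt3a* KO ESCs 26.4. The printed exons encode part of the catalytic domain and show how many CpGs the *Dnmt3a* deletion takes away, with CpGs that had at least 3 reads in WT and *Dnmt3b* KO ESCs in capitals.
Dnmt3a exon 18 (chr12:3902381-3902471, plus strand): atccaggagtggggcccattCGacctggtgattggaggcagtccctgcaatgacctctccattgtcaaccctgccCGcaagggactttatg
Dnmt3a exon 19 (chr12:3902666-3902814, plus strand): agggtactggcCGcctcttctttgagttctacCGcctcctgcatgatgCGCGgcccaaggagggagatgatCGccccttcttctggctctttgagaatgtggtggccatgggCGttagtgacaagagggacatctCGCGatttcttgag
Both CpGs of exon 18 and 7 of the 8 CpGs of exon 19 had 0 reads in *Dnmt3a* KO ESCs, while the last CpG of exon 19, at 3902803, had 4 reads, all of them methylated. The reads therefore resume inside exon 19, and the stretch without reads lies between the CpGs at 3902343 and 3902803, at most 460 bp.

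**Figure D1:**
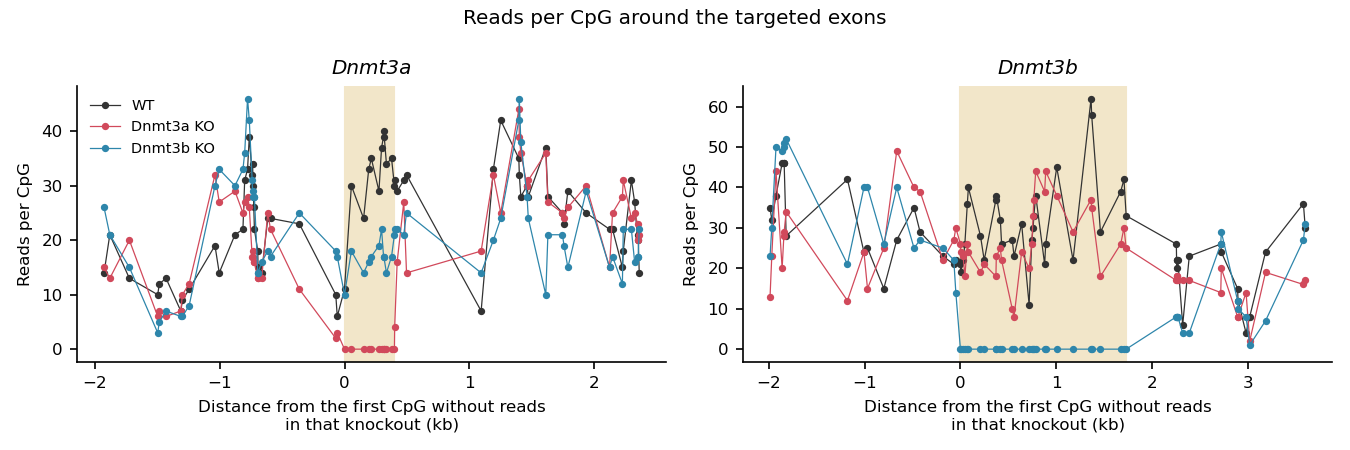
Reads per CpG (y axis) against the distance from the first CpG without reads in kb (x axis), around the targeted exons of *Dnmt3a* (left) and *Dnmt3b* (right); each point is 1 CpG and the shaded band marks the stretch without reads in the matching knockout. The *Dnmt3a* KO line is at 0 over 12 CpGs on the left, and the *Dnmt3b* KO line is at 0 over 30 CpGs on the right.

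The CpGs next to the *Dnmt3a* deletion did not have like levels on its 2 sides in *Dnmt3a* KO ESCs. In the 2 kb before it, 28 CpGs had a mean level of 97.0%, 32.4% and 87.0%. In the 2 kb after it, 27 CpGs had 94.3%, 53.9% and 89.4%. The window of 1 kb from 3901030 to 3902029, with 98.2% in WT and 28.6% in *Dnmt3a* KO ESCs over 20 CpGs, was the most reduced of the 116 windows of *Dnmt3a*. Around the *Dnmt3b* deletion the remaining CpGs of *Dnmt3b* KO ESCs had 77% before and 75.7% after it, against 93.5% and 87.8% in WT.

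The promoters of the 8 genes fell into 2 kinds. Over the 1 kb on both sides of the start of the longest transcript, 6 of the 8 genes had a level of at most 11.5% in all genotypes, while *Dnmt3l* and *Tet1* were methylated in WT. For *Tet1* this holds at Tet1-001, which has no RefSeq start within 1 kb. Its RefSeq start had 2.41% in WT, and the counts below use Tet1-001. Under 10% methylation in WT was found for 5 of the 8 genes and for 37.7% of the 14083 protein-coding genes with at least 5 CpGs in this window. *Dnmt3l* and *Tet1* were lower than WT in *Dnmt3a* KO ESCs by more than 20 percentage points, 2 of 8 genes, where 40.9% of all promoters were. In *Dnmt3b* KO ESCs 0 of the 8 promoters were that much lower, where 2.51% of all promoters were. The median difference of the 8 promoters from WT was -4.24 percentage points without DNMT3A and -1.73 without DNMT3B, against -12.3 and -3.73 over all promoters. The 8 promoters started lower, with a median WT level of 5.91% against 17.8% over all promoters. With windows of 500 bp on both sides of the start the median differences of the 8 genes were -0.914 and -0.0322. With CpGs of at least 10 reads they were -7.09 and -2.48.

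**Figure D2:**
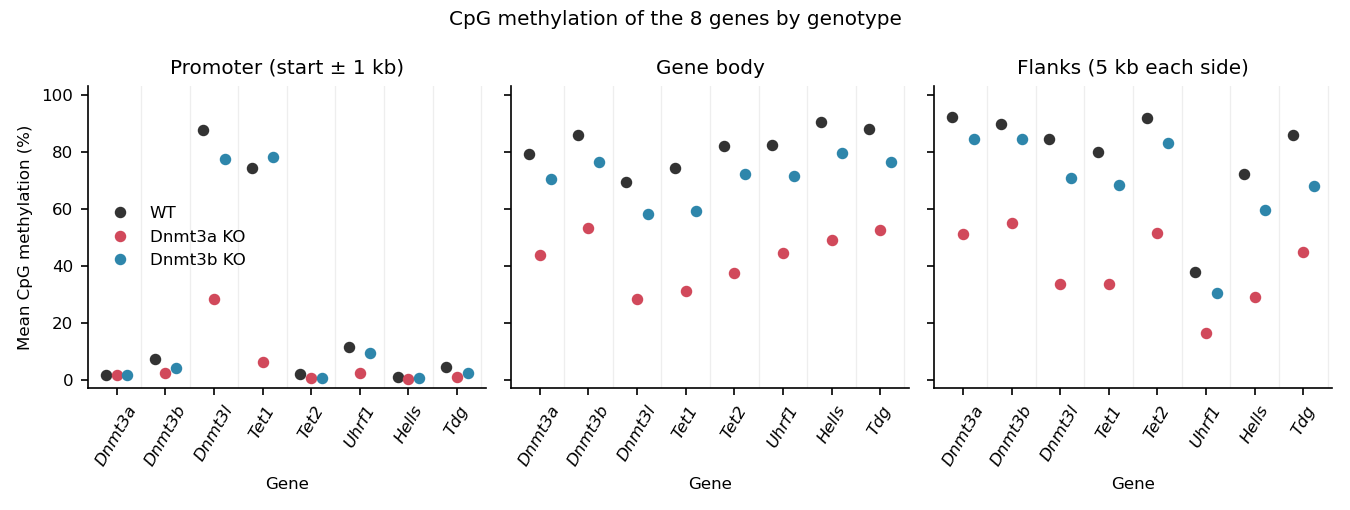
Mean CpG methylation in % (y axis) of each of the 8 genes (x axis) over the promoter, the gene body without the promoter window, and the flanks of 5 kb on each side; each point is the pooled value of 1 genotype, without a replicate error. *Dnmt3l* and *Tet1* have promoters at 87.5% and 74.1% in WT, that of *Tet1* taken at Tet1-001 and not at the RefSeq start. In all bodies and flanks *Dnmt3a* KO is lowest and *Dnmt3b* KO lies between it and WT.

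Among the methyltransferases, the *Dnmt3a* promoter (ENSMUSG00000020661.9, chromosome 12 from 3806007 to 3914443, plus strand) had 1.49% methylation in WT, 1.51% without DNMT3A and 1.69% without DNMT3B. It is very rich in CpGs, with 259 in the window and a GC content of 77.5%, and 159 of them were covered well enough, at a mean of 7.19 to 9.10 reads. The share of methylated reads, which gives deep CpGs more weight, was 2.97% in WT and 1.31% without DNMT3A. The mean over CpGs did not show this difference of -1.66 percentage points (95% interval -2.90 to -0.549). The interval counts a read again at each CpG that it covers, so that it is too narrow and does not settle whether the levels differ. The promoter of *Dnmt3b* (ENSMUSG00000027478.9, chromosome 2 from 153475186 to 153513466, plus strand) had 7.27%, 2.5% and 4.20% over 127 CpGs. Its SD over CpGs was 20.6 percentage points in WT.

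*Uhrf1* (ENSMUSG00000001228.8, chromosome 17 from 56442744 to 56462909, plus strand) had the highest WT level of these 6 promoters, with 11.5%, 2.5% and 9.41% over 105 CpGs. Of these 105 CpGs, 11 were called hypomethylated without DNMT3A and 1 without DNMT3B, meaning that the 95% credible interval of the difference lay beyond 0.2. Over all CpGs tested 25.6% and 2.14% were called. A CpG with little methylation in WT cannot be called lower, so that low counts at such promoters are set by the WT level. The *Hells* promoter (ENSMUSG00000025001.5, chromosome 19 from 39005405 to 39045541, plus strand) was the lowest of the 8 in WT and in *Dnmt3a* KO ESCs, with 1.06% and 0.206%. *Tet2* (ENSMUSG00000040943.7, chromosome 3 from 133126643 to 133207354, minus strand) had 1.92%, 0.538% and 0.585%. *Tdg* (ENSMUSG00000034674.11, chromosome 10 from 82092573 to 82113544, plus strand) had 4.55%, 0.833% and 2.26%. At *Hells* and *Tet2*, whose WT levels leave little room for such a drop, 0 CpGs of the promoter were called in either knockout.

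*Tet1* (ENSMUSG00000047146.8, chromosome 10 from 62267318 to 62361866, minus strand) stood apart from the other genes at the start of its longest transcript, Tet1-001. Its 23 CpGs had a mean level of 74.1%, 6.08% and 78.1% (SD over CpGs 18, 11.1 and 12.5). The share of methylated reads was lower than in WT by 67.1 percentage points in *Dnmt3a* KO ESCs (95% interval of the difference -71.0 to -62.4). Without DNMT3B it differed from WT by 2.36 percentage points, with an interval from -2.70 to 7.36. No difference was thus detectable over the whole window at this depth, and the intervals cover counting error only. The 2 sides of the window differed, with 80.6% in WT and 78.1% in *Dnmt3b* KO ESCs over 14 CpGs before the start. The 9 CpGs after it had 63.9% and 78.1%. By the mean over CpGs the difference was 3.97 percentage points, and 14025 of the 14083 promoters had a lower value. Of the 23 CpGs, 19 were called hypomethylated without DNMT3A and 0 without DNMT3B, where 25.6% and 2.14% of all CpGs were, and a count of 0 in 23 is close to the latter. The *Tet1* promoter was lower without DNMT3A than without DNMT3B by 72.0 percentage points, *Tet1* and *Dnmt3l* being the 2 of 8 genes beyond 20 where 31.4% of all promoters were, and 0 of the other promoters among the 14083 had a lower value of this difference. Against WT, 33 promoters of *Dnmt3a* KO ESCs had a lower value than the -68.0 percentage points of *Tet1*.

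**Figure D3:**
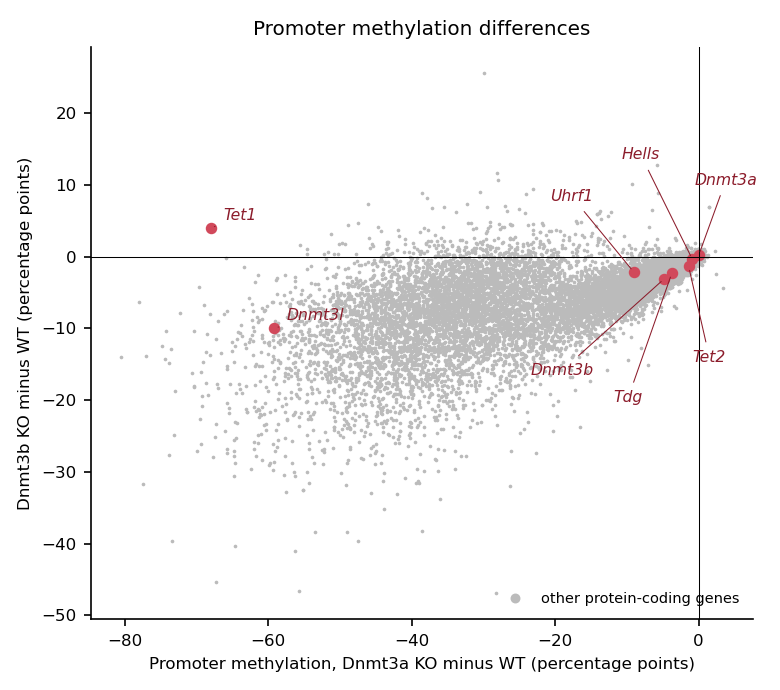
Difference in promoter methylation from WT in percentage points, for *Dnmt3a* KO (x axis) and *Dnmt3b* KO (y axis), for 14083 protein-coding genes (grey points) with the 8 genes in red; both axes share the same WT values. *Tet1* lies at -68.0 on the x axis and 3.97 on the y axis, and 6 of the 8 genes lie close to 0 on both.

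RefSeq places the start 11.8 kb further into the gene, where its promoter sequence matches chromosome 10 of mm9 once. Of the 21 starts examined, 12, among them that one, had a RefSeq start within 1 kb, whereas Tet1-001 had none. At the RefSeq start, 87 CpGs with a GC content of 53.4% had 2.41% methylation in WT, 0.630% without DNMT3A and 1.14% without DNMT3B. By that start *Tet1* belongs with the unmethylated promoters. Between these positions, from 1 to 8 kb after Tet1-001, lay a stretch of 7 kb with intermediate methylation in WT, singled out after its values were seen. Its 55 CpGs had 45.1%, 3.15% and 32.1%. The upstream flank of *Tet1* had a like pattern, with 67.5%, 12.3% and 57.7% over 34 CpGs.

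On the other side of the unmethylated stretch, *Tet1* had the start that was lowest relative to WT in *Dnmt3b* KO ESCs. At the start of Tet1-201, 19.1 kb after Tet1-001, 43 CpGs had 90.3%, 28.7% and 44.2% methylation (SD over CpGs 10.5, 16.1 and 22.6), at 27.9 to 33.7 reads per CpG. Like Tet1-001, it has no RefSeq start within 1 kb. Of the 43 CpGs, 34 were called hypomethylated without DNMT3A and 24 without DNMT3B, against 25.6% and 2.14% of all CpGs. Of the 21 starts, 1 was over 20 percentage points below WT in *Dnmt3b* KO ESCs, where 2.51% of all promoters and 5.23% of all 1 kb windows were. Dnmt3a-016 and Dnmt3l-006 lay just inside this limit, both at -19.9. At the 5 CpGs of the printed Tet1-201 window, 9 of 9, 28 of 41, 26 of 31, 17 of 19 and 15 of 19 reads were methylated in WT, and 7 of 11, 5 of 8, 3 of 15, 8 of 13 and 4 of 15 in *Dnmt3b* KO ESCs. In this window, printed for its contrast, each CpG was lower in *Dnmt3b* KO ESCs than in WT, by little at the second.

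The affected stretch was longer than this start. From 16 to 21 kb after Tet1-001, 79 CpGs had 86.1% methylation in WT, 22% without DNMT3A and 39.4% without DNMT3B. In the next 3 kb, 30 CpGs had 88.8%, 36.4% and 76.8%. Both stretches were chosen after their values were seen. In the profile of *Tet1* the level of *Dnmt3b* KO ESCs was thus close to WT at Tet1-001 and between WT and *Dnmt3a* KO at Tet1-201.

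**Figure D4:**
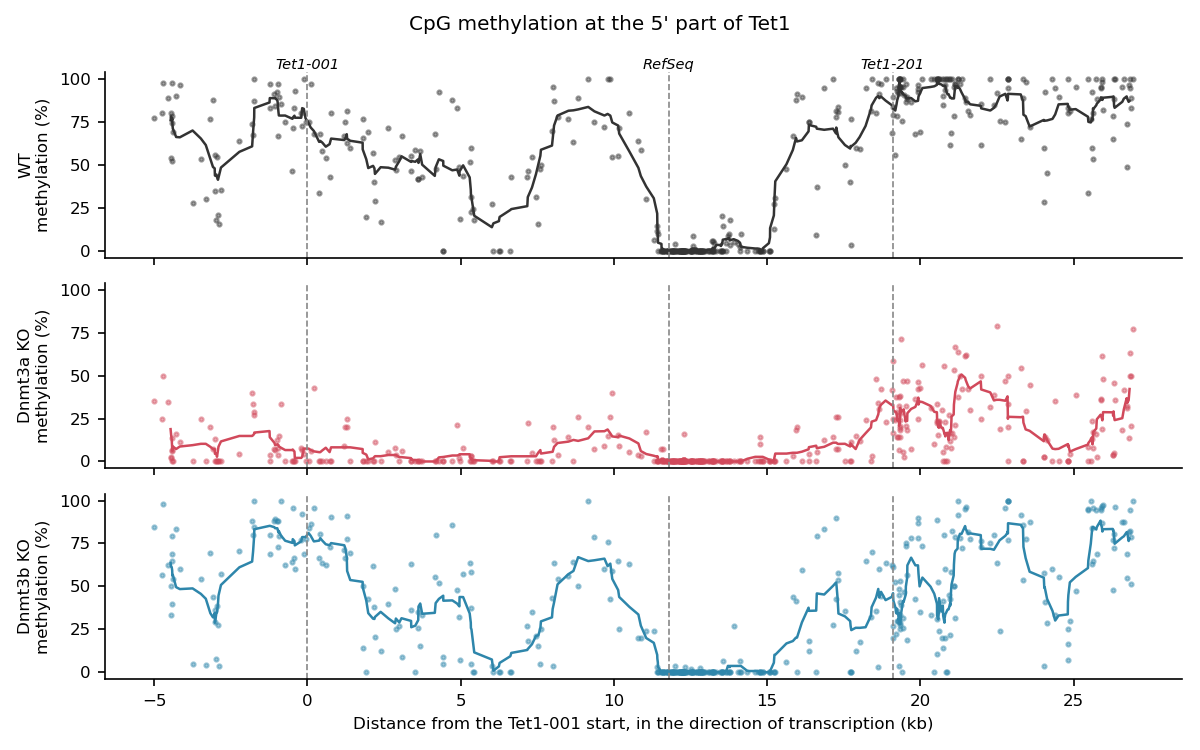
Methylation of single CpGs in % (points) and its running mean over 9 CpGs (lines) against the distance from the Tet1-001 start in kb, for WT, *Dnmt3a* KO and *Dnmt3b* KO ESCs from top to bottom; dashed lines mark the transcript starts. Around 0 kb *Dnmt3b* KO is as high as WT (78.1% and 74.1%) and *Dnmt3a* KO is near 0 (6.08%), at the RefSeq start all are near 0, and at Tet1-201 both knockouts are low.

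*Dnmt3l* (ENSMUSG00000000730.7, chromosome 10 from 77504692 to 77526367, plus strand) had a methylated promoter in WT as well. At Dnmt3l-001, 34 CpGs had 87.5%, 28.3% and 77.5% methylation (SD over CpGs 11.6, 26.6 and 23.3). The read share differed from WT by -54.6 percentage points in *Dnmt3a* KO ESCs (95% interval -58.1 to -50.7) and by -8.43 percentage points in *Dnmt3b* KO ESCs (-11.8 to -4.98). In the printed window the level of *Dnmt3a* KO ESCs was lower at each CpG up to the fifth, with 22 of 28, 15 of 31, 3 of 21, 1 of 11, 0 of 12 and 0 of 16 methylated reads at the 6 CpGs in order, where WT had 26 of 29, 23 of 25, 18 of 18, 10 of 12, 9 of 12 and 23 of 23. Methylation was therefore near WT at the first of these CpGs and absent from the reads at the last.

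The internal starts of *Dnmt3l* differed from the first. At Dnmt3l-003, 7.55 kb further into the gene, 42 CpGs had 33.4%, 1.97% and 28.7%. Around it, from 5 to 8 kb after the first start, 48 CpGs had 26.9%, 0.879% and 22.1%, in a stretch singled out after its values were seen. At position 77512893, in this stretch, 14 of 24 reads were methylated in *Dnmt3b* KO ESCs against 3 of 27 in WT and 0 of 23 in *Dnmt3a* KO ESCs. It is 1 of only 3 CpGs in the 8 genes that were called hypermethylated in *Dnmt3b* KO ESCs, where 0.069% of all CpGs tested were. At Dnmt3l-006, 25 CpGs had 83.2%, 23.5% and 63.3%. The window of 1 kb from 77506032 to 77507031 had 23.1%, 3.01% and 13.2% over 37 CpGs, and it holds the start of *Aire* on the opposite strand (77506325). The annotated *Aire* gene runs from 77492767 to 77506355, so that the upstream flank and the promoter window of *Dnmt3l* lie inside it, and their values cannot be assigned to *Dnmt3l* alone.

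**Figure D5:**
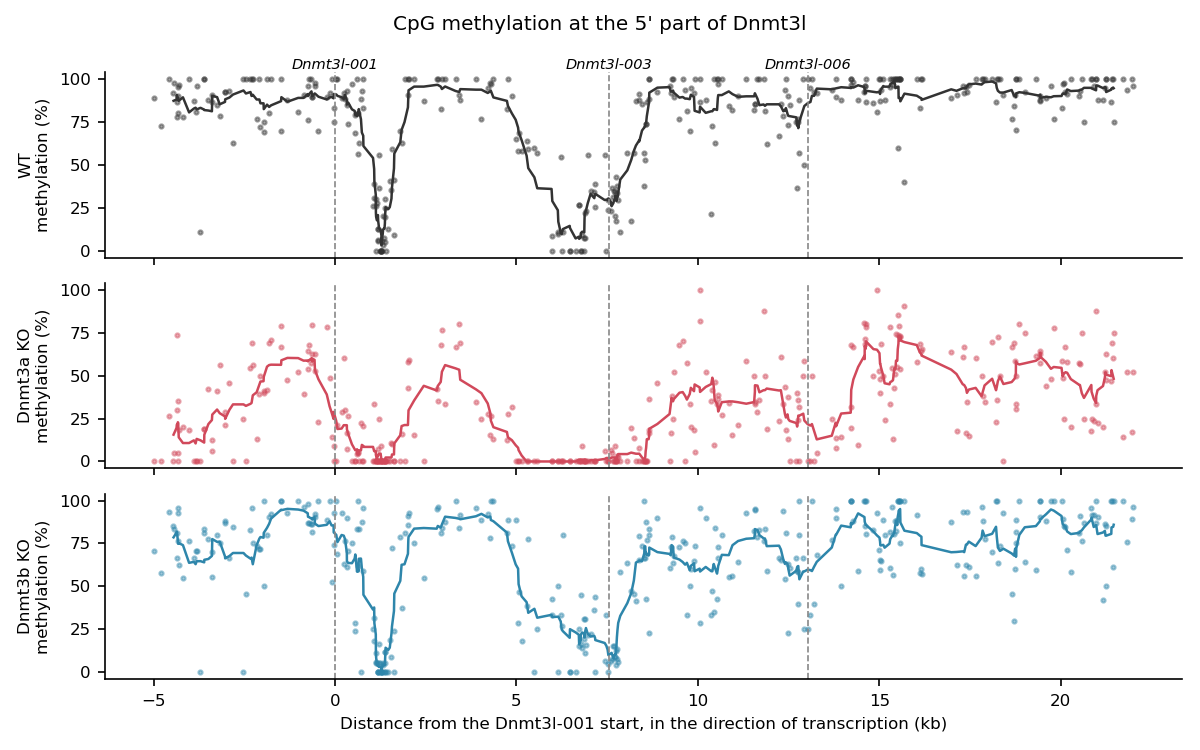
Methylation of single CpGs in % (points) and its running mean over 9 CpGs (lines) against the distance from the Dnmt3l-001 start in kb, for WT, *Dnmt3a* KO and *Dnmt3b* KO ESCs from top to bottom; dashed lines mark the transcript starts. The dip between 5 and 8 kb is at 26.9%, 0.879% and 22.1%.

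The 21 starts were divided at a WT level of 12%, chosen after the values were seen. In 9 of them, with an observed over expected CpG ratio of 0.458 to 0.880, methylation was between 1.06% and 11.5% in WT, and the difference from WT was between -9.03 and 0.0239 percentage points without DNMT3A and between -5.36 and 0.198 without DNMT3B. In the other 12, with a ratio of 0.130 to 0.406, methylation was between 33.4% and 97.4% in WT. All 12 were lower by more than 20 percentage points in *Dnmt3a* KO ESCs, with differences from -68.0 to -28. Of the promoters of all genes, methylated or not, 40.9% were that much lower, and of all gene bodies 96.5%. Starts under 12% cannot be lower by more than 20 percentage points, so that this contrast is set by the division, whereas the CpG ratios were not used for it. A RefSeq start lay within 1 kb of all 9 starts of the first group, but of only 3 of the other 12, all in *Dnmt3l*. Apart from Tet1-001 and Dnmt3l-001, the 12 lie inside their genes, so that all promoters are not a like background for them. *Dnmt3a* has starts of both groups. Dnmt3a-201, which encodes the short isoform Dnmt3a2 that ESCs mainly use, had 8.74%, 5.19% and 3.38% over 60 CpGs. Of the 21 starts it was the only 1 at which *Dnmt3b* KO ESCs had a lower mean than *Dnmt3a* KO ESCs. Dnmt3a-016, 99.8 kb after the first start, had 88.7%, 26.6% and 68.7%, and Dnmt3a-007 had 95.5%, 62.8% and 89.3%. Ahead of Dnmt3a-201, a stretch of 7 kb singled out after its values were seen was partly methylated, with 50.0%, 15.1% and 32.1% over 66 CpGs.

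Under-methylated runs, here neighbouring CpGs with a mean methylation over 5 CpGs of at most 10%, were longer at most of the starts in *Dnmt3a* KO ESCs. At the RefSeq start of *Tet1* the run was 3.68, 6.12 and 3.85 kb long. At *Hells* it was 1.88, 4.65 and 2.81 kb, at *Tet2* 1.24, 2.86 and 2.17 kb, and at *Uhrf1* 1.36, 2.45 and 1.56 kb. At *Dnmt3b* it was 1562, 1956 and 1496 bp, and at *Tdg* 1.36, 2.04 and 1.75 kb. *Dnmt3a* was the exception at both of its starts with a run in WT. At Dnmt3a-201 the run was 1.06, 0.999 and 1.42 kb long, and at Dnmt3a-001 2.05, 1.07 and 1.38 kb. The latter ends in *Dnmt3a* KO ESCs next to a CpG with 3 of 3 methylated reads at 3807327, against 0 of 7 in WT, in a promoter of low depth. At Dnmt3l-003 a run of 3.53 kb was found in *Dnmt3a* KO ESCs, where WT had none. The summed length was 14.2 kb in 8 runs, 26.7 kb in 11 runs and 16.4 kb in 8 runs. With a limit of 20%, chosen after seeing the data, it was 16.7, 45.5 and 23.9 kb.

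Just outside these runs, which hold low levels by definition, the genes were partly methylated in WT. In the 2 kb on both sides of the WT run, methylation at *Tet2* was 23.2%, 2.58% and 12.6% over 34 CpGs. At *Hells* it was 42.8%, 8.75% and 21.7% over 36 CpGs, and at *Dnmt3b* 51.1%, 15.9% and 36.2% over 57 CpGs. *Uhrf1* had 67.2%, 19.5% and 51.6%, *Tdg* 72.6%, 30.0% and 50.8%, and the RefSeq start of *Tet1* 58.0%, 8.32% and 33.0%. The edges of Dnmt3a-001 kept the largest part of the WT level, with 64.9%, 34.1% and 55.0%. At all of them *Dnmt3a* KO was lowest and WT highest, although the runs were placed on the WT values, which favours a higher WT level just outside them.

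The bodies of the genes, without the promoter window, were methylated in WT and lower in both knockouts. All 8 were lower than WT in *Dnmt3a* KO ESCs by more than 20 percentage points, where 96.5% of 12623 gene bodies were, and 0 of 8 in *Dnmt3b* KO ESCs, where 2.99% were. The median difference of the 8 bodies was -39.5 percentage points without DNMT3A and -10.8 without DNMT3B, against -35.2 and -7.28 over all gene bodies. The direct comparison of the knockouts put all 8 bodies lower without DNMT3A than without DNMT3B by more than 20 percentage points, where 88.7% of all bodies were. The median of this last difference was -27.5 percentage points for the 8 genes and -27.4 for all, and the shares past 20 percentage points were close to the background.

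In WT the body levels ranked from *Hells* (90.4%), *Tdg* (88.0%), *Dnmt3b* (85.7%), *Uhrf1* (82.4%), *Tet2* (81.9%) and *Dnmt3a* (79.0%) to *Tet1* (74.3%) and *Dnmt3l* (69.5%). In *Dnmt3a* KO ESCs they were 49.1%, 52.6%, 53.3%, 44.5%, 37.3%, 43.7%, 31.0% and 28.3% in the same order of genes, and in *Dnmt3b* KO ESCs 79.7%, 76.4%, 76.5%, 71.5%, 72.0%, 70.4%, 59.0% and 58.1%. Single CpGs within a body had an SD of 16.5 to 34.3 percentage points in WT, and whether neighbours in this order differ beyond a spread of replicates could not be tested. Further transcript starts remain inside the bodies, since only the window of the longest transcript was left out. Outside the start windows *Uhrf1* had the highest WT level of these genes, 95.2% in exons and 91.9% in introns. *Hells* had 94.9% and 89.3% there. The order of the bodies in WT thus depends on which start windows are left out. Put as a share of the WT level, *Dnmt3l* kept 40.8%, *Tet1* 41.8% and *Tet2* 45.6% in *Dnmt3a* KO ESCs, and 5.07%, 5.73% and 9.13% of 12011 gene bodies with at least 50% methylation in WT kept less. *Dnmt3b* kept the most, 62.3%. In *Dnmt3b* KO ESCs *Tet1* kept 79.4%, and the other 7 genes kept 83.6% to 89.3%.

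Exons of the 8 genes kept more of their methylation than introns, a comparison that was not made for other genes and is not read as particular to these. Outside the start windows, exons of all 8 genes had a higher WT level than the introns of the same gene, with medians of 93.3% and 82.0%. In *Dnmt3a* KO ESCs the retained share was higher in exons than in introns for 8 of 8 genes, with medians of 61.4% and 52.7%. At *Tet2* exons kept 62.1% and introns 38.7%, and at *Tet1* they kept 53.5% and 38.0%. At *Dnmt3l* the shares were close, 46.0% and 45.5%. In *Dnmt3b* KO ESCs the exon share was higher in 7 of 8 genes, with medians of 90.6% and 86.5%, and *Dnmt3l* was the exception, with 80.1% in exons and 85.7% in introns.

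Within the genes the loss was uneven. Of 450 windows of 1 kb with at least 5 CpGs in the genes and flanks, 410 (91.1%) were lower in *Dnmt3a* KO ESCs by more than 20 percentage points, where 86.6% of all such windows were, and 67 (14.9%) in *Dnmt3b* KO ESCs, where 5.23% were. The share in *Dnmt3b* KO ESCs ranged from 4.65% of the windows of *Dnmt3b* to 23.5% of those of *Tet1* and 26.7% of those of *Dnmt3l*. The largest drop in *Dnmt3a* KO ESCs lay in *Tet2*, 8 kb after its start, where 12 CpGs had 89.3%, 6.98% and 68.7%. The largest drop in *Dnmt3b* KO ESCs lay in *Tet1*, 20 kb after Tet1-001, where 20 CpGs had 96.3%, 20.8% and 34.7%. *Tet2* also held a stretch of 5 kb, singled out after its values were seen, that was nearly free of methylation in *Dnmt3a* KO ESCs, with 63.9%, 1.52% and 41.8% over 44 CpGs.

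Single CpGs were called where the 95% credible interval of the difference lay beyond 0.2. In *Dnmt3a* KO ESCs 1983 of 6043 CpGs of the 8 genes (32.8%) were hypomethylated, where 25.6% of all CpGs were. In *Dnmt3b* KO ESCs 253 of 6027 (4.20%) were, where 2.14% of all CpGs were. The counts depend on the call rule. Fisher's exact test called 3176 (52.6%, all CpGs 49.6%) and 395 (6.55%, all CpGs 3.91%). Without DNMT3B an interval of 99% gave 140 (2.32%, all CpGs 1.01%), and a difference of 0.1 gave 548 (9.09%, all CpGs 5.59%). *Tet1* had the highest share in both, with 562 of 1184 CpGs (47.5%) and 111 of 1188 (9.34%), followed by *Dnmt3l* with 42.1% and 4.49%. *Tdg* (23.1%) and *Dnmt3b* (23.6%) had the lowest shares in *Dnmt3a* KO ESCs, and *Dnmt3a* (2.28%) the lowest in *Dnmt3b* KO ESCs. Directly compared, 1167 of 6005 CpGs (19.4%) were lower without DNMT3A than without DNMT3B, where 16.8% of all CpGs were, and 2 were higher, where 0.0566% of all CpGs were. With Fisher's exact test 2057 (34.3%) were lower, where 33.8% of all CpGs were. Only 1 CpG was called higher than WT in *Dnmt3a* KO ESCs, where 0.00703% of all CpGs were, namely that with 3 reads in the *Dnmt3a* promoter. The others in *Dnmt3b* KO ESCs lay in *Dnmt3a*, at 3847823 with 24 of 24 reads against 12 of 22 in WT, and in *Tet2*, at 133186209 with 28 of 28 against 16 of 30. The counting interval covers the pooled reads only, so that these single CpGs have no replicate check.

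The base that follows the CpG went with the retained share, as counted on each strand in the bodies outside the start windows. Without DNMT3A the 8 genes kept 55.2% of the WT level at CpGs followed by A and 53.3% at those followed by G, against 49.1% before C and 49.2% before T. Without DNMT3B the order was turned around, with 83.3% before A and 85.7% before G against 91.9% before C and 87.7% before T. Over all CpGs of the shared part the shares were 62.9% (A), 64.6% (G), 58.9% (C) and 58.2% (T) without DNMT3A, and 89.1%, 91.7%, 94.7% and 92.1% without DNMT3B. The C context was thus the most retained in *Dnmt3b* KO ESCs in both sets, and the values of the 8 genes rest on 1333 to 1665 CpG strands per base.

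The flanks of 5 kb were lower than WT in *Dnmt3a* KO ESCs by more than 20 percentage points for all 8 genes, where 94% of all flanks were, and for 0 of 8 in *Dnmt3b* KO ESCs, where 0.658% were. Between the knockouts 7 of 8 flanks differed that much, where 81% of all flanks did. The median difference was -41.0 percentage points without DNMT3A and -10.3 without DNMT3B, against -34.7 and -7.45 over all genes. *Dnmt3l*, whose upstream flank lies inside *Aire*, had the largest difference in *Dnmt3a* KO ESCs, with 84.5%, 33.5% and 70.8%. *Tdg* had 85.8%, 44.8% and 68.0%, and its difference in *Dnmt3b* KO ESCs was -17.8 percentage points as a mean over CpGs and -11.8 as a share of reads. By the mean over CpGs it was the largest of the 8, and by the share of reads *Dnmt3l* had the largest, -16.5. The downstream flank of *Tdg* lies inside *Glt8d2*, which is on the opposite strand. *Uhrf1* had the lowest flanks, with 37.7%, 16.5% and 30.6%, and its downstream flank, at 19.7% in WT, holds the CpG-rich start of *Kdm4b* at 56465497. Its upstream flank had 93.8%, 46.4% and 84.5% and holds the start of *Arrdc5*, on the opposite strand, at 56439709. The upstream flank of *Hells* was partly methylated, with 59.3%, 17.9% and 42.7% over 39 CpGs.

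By 9 levels, 3 genotypes in promoter, body and flanks, each of the 8 genes was compared with 12492 genes. *Tet1* and *Dnmt3l* lay further from their nearest gene than the other 6 did. How far the nearest gene lies for other genes with methylated promoters was not examined. The nearest to *Tet1* was *Lgals3*, at a Euclidean distance of 15.1 percentage points, with promoter levels of 72.8%, 9.35% and 65.3%. The nearest to *Dnmt3l* was 4932411G14Rik at 10.9 points. For the other 6 genes the nearest gene lay 2.5 to 5.76 points away. The distance of *Tet1* rests on the promoter window of Tet1-001, not the RefSeq start, and that of *Dnmt3l* in part on windows that lie inside *Aire*.

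Other genes of the pathway were taken from a list of 51, of which 32 have values in WT. Their promoters were lower than WT in *Dnmt3a* KO ESCs by more than 20 percentage points in 5 of 32 and in *Dnmt3b* KO ESCs in 0 of 32, where 40.9% and 2.51% of all promoters were. Their bodies were in 32 of 32 and 4 of 32, where 96.5% and 2.99% of all bodies were. A promoter with under 20% methylation in WT cannot be that much lower, so that the promoter counts are set in part by the WT levels. The median promoter difference of the list was -4.10 percentage points without DNMT3A and -1.79 without DNMT3B. Among cofactors of methylation, the promoter of *Zfp57*, which encodes a zinc finger protein that keeps imprints methylated, had 83.1%, 26.1% and 78.1%. That of *Usp7*, which encodes a deubiquitinase that binds UHRF1 and DNMT1, had 31.6%, 10.3% and 25%. Among the genes of demethylation and base excision repair, *Smug1*, which encodes a uracil DNA glycosylase, had 81.2%, 37.1% and 69.8%, and *Neil2*, which encodes another glycosylase, 28.3%, 6.82% and 16.4%. Among the genes of methyl donor supply, *Shmt2*, the mitochondrial serine hydroxymethyltransferase, had 29.0%, 8.82% and 21.6%. For the 6 readers of methylated DNA with WT values, 0 promoters were that much lower, but all 6 had under 20% in WT and could not be.

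The bodies that were lower in *Dnmt3b* KO ESCs by more than 20 percentage points belong to 1 gene in each group. The body of *Apex1*, which encodes the abasic site endonuclease, had 55.6%, 17.8% and 19.6%. *Shmt2* had 86.9%, 34.9% and 62.4%, *Mbd3*, a subunit gene of the NuRD complex, 63.6%, 26.1% and 40.9%, and *Pcna*, which encodes the replication clamp, 40.6%, 10.8% and 18.4%. The maintenance methyltransferase gene *Dnmt1* and the third TET gene *Tet3* lie on chromosomes 9 and 6, which have no WT values here. The *Dnmt1* promoter had 0.633% without DNMT3A and 2.10% without DNMT3B, and its body 55.9% and 79.9%. *Tet3* had 3.30% and 8.65% at the promoter and 57.0% and 86.1% in the body.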

How the data were processed

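WGBS of 3 genotypes of J1 ESCs was analysed, with 3 libraries each. BSMAP (mm9) and BSeQC (bias removal) were run by the authors, who made the deposited read counts per CpG, all reads and methylated reads, with MOABS, without normalization. The deposited fraction of each CpG is methylated over all reads. All listed positions are CpGs of mm9; 1 incomplete row of the WT table, which ends on chromosome 4, was left out. The mean of the ratios was computed over CpGs covered by at least 3 reads in all genotypes, with GENCODE genes of mm9 and the longest protein-coding transcript. Promoters were 1 kb on both sides of the start. Further starts lay over 1 kb from the others, and RefSeq starts were placed by exact match (13 of 13). CpGs were called from Beta posteriors with a uniform prior, counts over 200 reads being scaled down. The call was tested on simulated reads only for CpGs with at least 10 reads and high methylation in WT. Calls at CpGs with fewer reads or low WT levels were not simulated. Wilson intervals of 95% cover counting error only and take all CpGs of a read as independent, so that they are too narrow. Intervals of differences were formed from them. Compartments of other genes needed at least 5 CpGs. Shares of all CpGs, windows, promoters, bodies and flanks refer to the part shared with WT, which holds 14281 of 22367 protein-coding genes. The 8 genes and the pathway list were chosen with earlier results of these data known. From the list, genes with the largest or smallest differences are named. Python 3.11.15 with NumPy 2.4.6, SciPy 1.17.1, numba 0.67.0 and matplotlib 3.10.9 was used. The alternatives were other read minima, weighting by reads, thinning, other windows and other call rules.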

Additional observations from a re-analysis of the deposited data

How the results depend on the processing

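No paired analysis was possible because each table pools its 3 libraries, which also left no replicate to leave out. Of 57 medians of the 8 genes recomputed under other settings, 57 were below 0 like the values reported, and 8 moved by more than the counting error. They rest on the same reads, so that they are not independent of each other. With CpGs of at least 10 reads the median promoter difference was -7.09 percentage points for *Dnmt3a* KO minus WT and -2.73 for *Dnmt3a* KO minus *Dnmt3b* KO, which was -1.56 as first computed. With promoters of 500 bp on both sides it was -0.914 for *Dnmt3a* KO and -0.0322 for *Dnmt3b* KO minus WT, and -0.497 between the knockouts. With the promoter window kept in the body, the median body differences were -31.5 (*Dnmt3a* KO), -9.02 (*Dnmt3b* KO) and -23.6 (between the knockouts). With the windows of all GENCODE transcript starts left out, RefSeq starts not being used, the last was -29.2. The cause was not tested. With Fisher's exact test hypomethylated CpGs numbered 3176 of 6043 (52.6%) in *Dnmt3a* KO, 395 of 6027 (6.55%) in *Dnmt3b* KO and 2057 of 6005 (34.3%) between the knockouts, where 49.6%, 3.91% and 33.8% of all CpGs were called. With an interval of 99% they numbered 140 (2.32%, all CpGs 1.01%) in *Dnmt3b* KO and 764 (12.7%, all CpGs 10.1%) between the knockouts. With a difference of 0.1 they numbered 548 (9.09%, all CpGs 5.59%) and 1849 (30.8%, all CpGs 29.2%). Between the knockouts the shares with Fisher's test and with 0.1 were thus close to the background. The summed length of runs in *Dnmt3a* KO ESCs with a limit of 20%, an alternative chosen after seeing the data, was 45.5 kb. Depth limits the *Dnmt3a* promoter most, where 100 CpGs of 259 were left out.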
